A study of Mus musculus with 8 samples.

Results

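Expression of the Wnt ligands, their Frizzled receptors and Lrp co-receptors, the secreted antagonists and the core components that carry the signal into the nucleus was examined in glomeruli of Cd151-/- and Cd151+/+ mice. Members were taken from the array table by gene symbol: the numbered Wnt, Fzd, Sfrp and Dkk genes with Dkkl1, and Lrp5, Lrp6, Wif1, Frzb, Axin1, Axin2, Lef1, Tcf7, Ctnnb1, Dvl1, Dvl2 and Dvl3. They comprised 67 probes for 47 genes, of 25697 probes for 18120 gene symbols on the array, and Axin1 had no row. Glomerular RNA from 4 Cd151+/+ and 4 Cd151-/- males on the FVB/N background, all 3 weeks of age, had been hybridised to Illumina MouseRef-8 v1.1 BeadChips, with 1 mouse on each array. Cd151 encodes a tetraspanin, a membrane protein that partners laminin-binding integrins at the podocyte surface, and the labels and methods name no driver that would restrict its deletion in the Cd151-/- animals to 1 cell type. Glomeruli had been collected with magnetic beads perfused through the heart, and each isolate holds podocytes, endothelium, mesangium and any attached cells together.

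Wnt proteins are secreted lipid-modified ligands that bind a Frizzled receptor, and in the canonical branch also an Lrp co-receptor, at the cell surface. Dishevelled then restrains the Axin-based complex that marks β-catenin for destruction, and β-catenin accumulates and works with Lef1 and the Tcf proteins at target genes. Sfrp proteins, Frzb and Wif1 bind the ligands, whereas Dkk1, Dkk2 and Dkk4 act on the Lrp co-receptors. In the kidney the pathway is known from nephron formation, and raised β-catenin activity in podocytes is known to accompany injury of the filtration barrier.

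All 3 Cd151 probes were detected on 4 of 4 Cd151+/+ arrays and on 0 of 4 Cd151-/- arrays. A probe was counted as detected where its deposited detection p-value was 0.05 or lower, and 14967 probes for 11240 symbols detected on at least 1 array were tested. The arrays formed sets of lower background (Cd151+/+ mice 1 and 2, Cd151-/- mice 3 and 4; inferred background 59.0 to 69.5 signal units) and of higher background (Cd151+/+ mice 3 and 4, Cd151-/- mice 1 and 2; 123 to 135). Each set held 2 mice of each genotype, what set them apart is not stated in the labels, and for the member genes described in full, the other pathway probes named and the larger marker shifts the differences within each set are also given. Podocyte transcripts were present: Podxl, Wt1, Tcf21, Ptpro and Nes were detected on all 8 arrays by at least 1 probe, whereas Cd2ap was not detected on any array.

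Of the 47 member genes, 25 were detected on at least 1 array and were tested through 33 probes, which is 53.2% of the member genes against 62% of all symbols. Detection on all 8 arrays was seen for 15 genes. Among the ligands only Wnt5a, Wnt5b and Wnt7b reached that, Wnt4, Wnt16, Wnt9b and Wnt3 were detected on fewer arrays, and the remaining 12 of 19 (Wnt1, Wnt2, Wnt2b, Wnt3a, Wnt6, Wnt7a, Wnt8a, Wnt8b, Wnt9a, Wnt10a, Wnt10b and Wnt11) were detected on none. By contrast 7 of the 8 Frizzled receptors with a row were detected on at least 1 array, with Fzd1 the exception. Of these, 4 were detected on all 8 arrays and Fzd10 on 1. Fzd5 and Fzd9 had no row under those symbols and were not examined. Lrp5 was detected on all 8 arrays and Lrp6 on 5. Among the antagonist families, Sfrp1, Sfrp2, Wif1 and Dkk3 were detected on all 8 arrays. Sfrp5 and Dkkl1 were detected on 1 array each, and Sfrp4, Frzb, Dkk1, Dkk2 and Dkk4 on none. Inside the cell Dvl1, Axin2 and Ctnnb1 were detected, and Dvl2, Dvl3, Lef1 and Tcf7 were not. A gene not detected here lay within the range of the array's negative-control probes, which sets no level for it, and in a bulk isolate a lower signal from fewer cells of a type cannot be told apart from less RNA per cell.

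**Figure D1:**
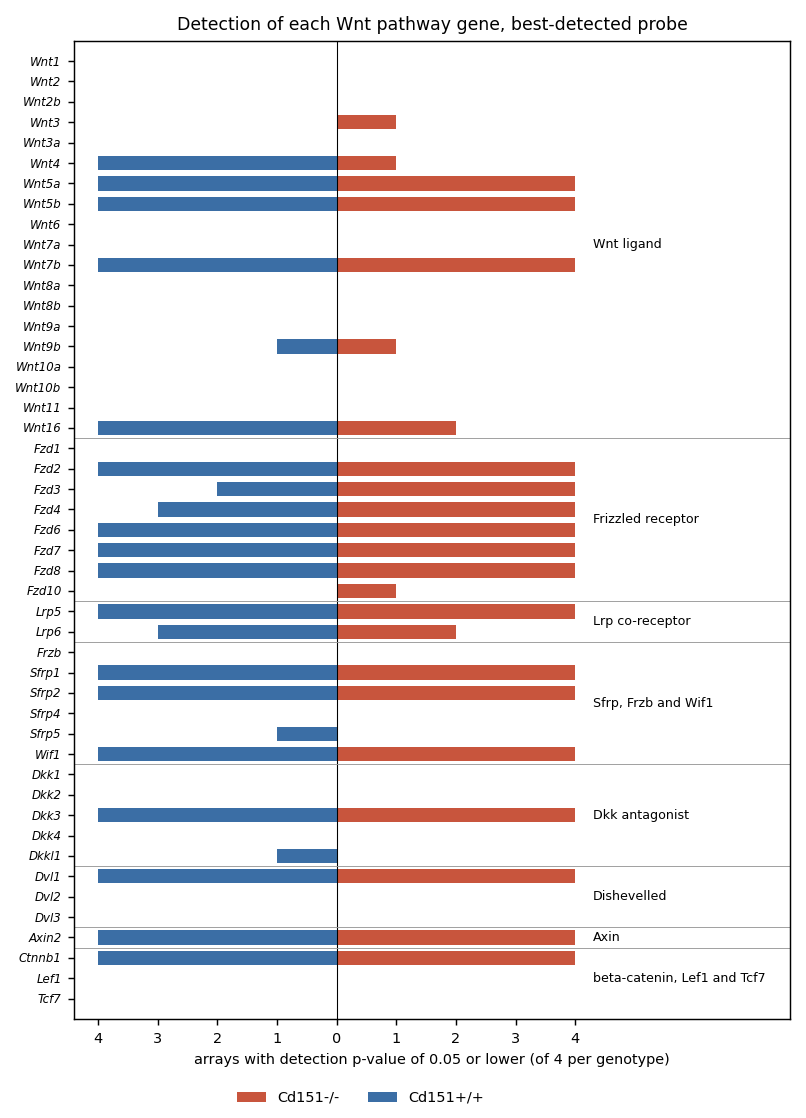
Number of arrays, of 4 per genotype, on which the best-detected probe of each member gene had a detection p-value of 0.05 or lower, drawn to the left for Cd151+/+ and to the right for Cd151-/- and grouped by role. Of the 47 genes, 15 reach 4 arrays on both sides and 22 have no bar, 12 of them Wnt ligands.

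Promoter sequence is shown for 3 genes on which the pathway's transcriptional output bears: Axin2, the member that is itself a classical β-catenin target, Fzd7, whose window held the motif searched, alone among the 5 members described in full that have an entry in the promoter table, and Sp5, a target gene outside the members with a genotype difference at the unadjusted threshold. The windows run from 250 bases before to 50 after the annotated start (RefSeq, mouse GRCm38.p6), and capitals mark CTTTGA or CTTTGT, the core that Tcf and Lef proteins bind, on either strand.
Axin2 promoter, chr11:108920099-108920398, plus strand: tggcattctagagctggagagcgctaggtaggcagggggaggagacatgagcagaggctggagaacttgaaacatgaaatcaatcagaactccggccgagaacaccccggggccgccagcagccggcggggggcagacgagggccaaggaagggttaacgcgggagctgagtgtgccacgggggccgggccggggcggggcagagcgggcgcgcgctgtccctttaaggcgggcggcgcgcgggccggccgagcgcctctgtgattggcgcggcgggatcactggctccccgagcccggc
Fzd7 promoter, chr1:59481897-59482196, plus strand: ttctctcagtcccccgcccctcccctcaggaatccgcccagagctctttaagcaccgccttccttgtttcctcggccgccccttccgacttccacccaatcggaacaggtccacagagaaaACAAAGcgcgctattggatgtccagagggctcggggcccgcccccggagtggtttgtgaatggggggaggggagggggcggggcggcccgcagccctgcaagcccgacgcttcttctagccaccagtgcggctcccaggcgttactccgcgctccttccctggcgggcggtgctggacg
Sp5 promoter, chr2:70474673-70474972, plus strand: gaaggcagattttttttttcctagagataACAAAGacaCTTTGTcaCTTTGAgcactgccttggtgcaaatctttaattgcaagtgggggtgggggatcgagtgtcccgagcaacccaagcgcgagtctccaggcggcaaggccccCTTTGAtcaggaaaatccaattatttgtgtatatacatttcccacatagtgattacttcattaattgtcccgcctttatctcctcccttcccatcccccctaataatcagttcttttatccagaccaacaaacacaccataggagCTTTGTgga
The Axin2 window held 0 matches, the Fzd7 window 1 and the Sp5 window 5. Among all 32851 windows of this length 31.2% held at least 1 match, compared with 10 of 41 windows (24.4%) of the 33 member genes in the table and 6 of 13 (46.2%) of the listed target genes. A match describes the letters of the window and not a bound site.

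Between the genotypes no member probe differed after Benjamini-Hochberg adjustment over the 14967 probes in limma. The count was 0 of 33, the smallest adjusted p was 0.918, and 0.0334% of all tested probes passed. SAM at an FDR below 0.2 also called 0 of them. At an unadjusted p of 0.05, 0 member probes were higher in Cd151-/- glomeruli, where 1.69% of all tested probes were, and 2 were lower, where 2.61% of all were. These were the Fzd2 probe and the dimmer of the Dvl1 probes. In no member probe did the Cd151+/+ and Cd151-/- mice separate without overlap, compared with 0.855% of all probes separating upward and 1.46% downward. The members were divided evenly in sign, with 17 probes above 0 and 16 below, and their median difference was 0.02 on the log2 scale against -0.01 for all tested probes. The differences ranged from -0.75 to 0.56.

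**Figure D2:**
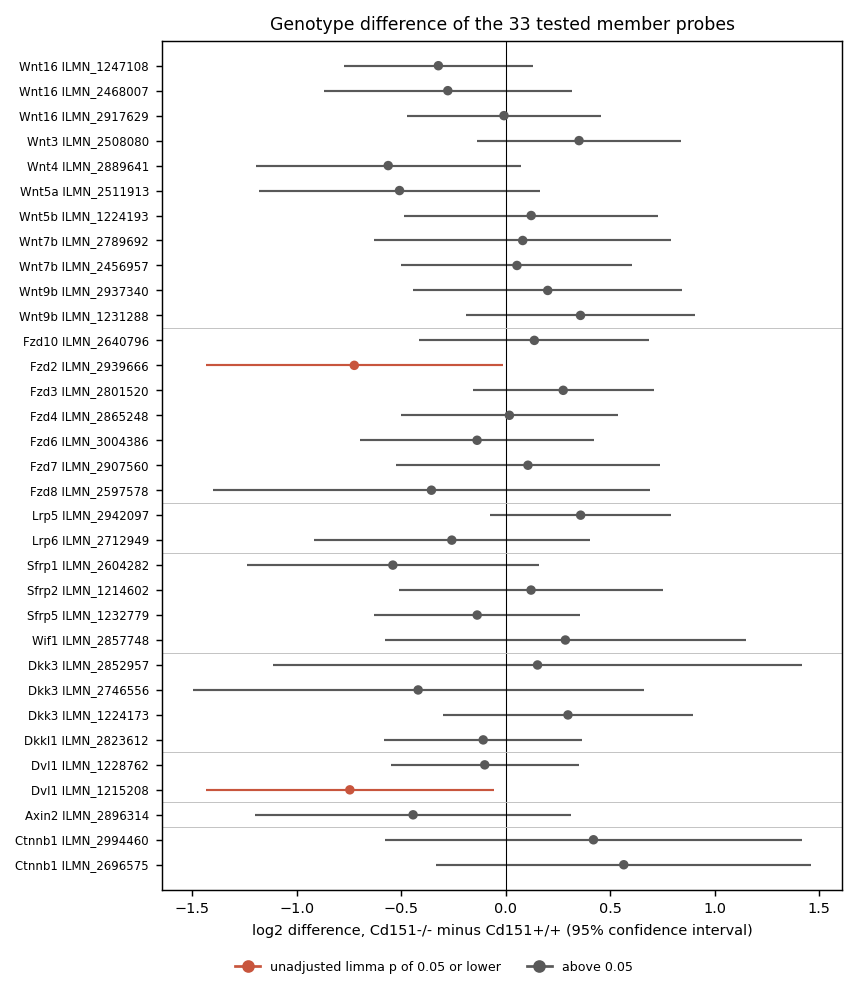
Log2 difference in normalised signal, Cd151-/- minus Cd151+/+, of the 33 tested member probes (points) with 95% confidence intervals from limma (lines), 4 mice per genotype, ordered by role and gene. The intervals of Fzd2 and of 1 Dvl1 probe end just below 0, and the other 31 cross it.

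Among the ligands, Wnt4, which drives nephron formation, was detected on 4 Cd151+/+ arrays but on 1 Cd151-/- array. It is described as the ligand with the largest difference among those detected on all 4 arrays of a genotype, a condition it met through the genotype with the higher signal, and the rank is therefore no result. Its normalised log2 signal was 6.45, 5.92, 5.67 and 5.30 in Cd151+/+ mice 1 to 4 and 5.76, 5.12, 5.31 and 4.90 in Cd151-/- mice 1 to 4. The genotypes overlapped, with Cd151-/- mouse 1 above the lower 2 Cd151+/+ mice, and a second Wnt4 probe was detected on no array. The difference was -0.56 (SE 0.29, adjusted limma p = 0.918, exact permutation p = 0.143). Within the lower-background arrays it was -1.08 and within the higher-background arrays -0.05. It was smaller without normexp (-0.24), with an offset of 50 (-0.33) and without Cd151+/+ mouse 1 (-0.37), and it passed the unadjusted threshold without Cd151+/+ mouse 4 (-0.70) or Cd151-/- mouse 1 (-0.67). The non-canonical ligand Wnt5a differed by -0.51 (SE 0.31, adjusted limma p = 0.918, exact permutation p = 0.171), and by -0.49 and -0.52 within the lower- and higher-background arrays. The other ligand probes, for Wnt3, Wnt5b, Wnt7b, Wnt9b and Wnt16, differed by -0.32 to 0.36, and none was below an unadjusted p of 0.05.

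Fzd2, a Frizzled receptor, was the member gene with a called difference before adjustment in its only tested probe. Its log2 signal was 10.25, 9.65, 9.13 and 9.47 in Cd151+/+ mice 1 to 4 and 8.40, 9.12, 9.58 and 8.50 in Cd151-/- mice 1 to 4. Cd151-/- mice 1, 2 and 4 lay below every Cd151+/+ mouse, and Cd151-/- mouse 3 lay among them. The means were 9.62 ± 0.47 and 8.90 ± 0.55 (SD, n = 4 each), a signal 1.65-fold lower in Cd151-/- glomeruli (log2 difference -0.72, 95% confidence interval -1.44 to -0.01). The unadjusted limma p was 0.0466, the adjusted p 0.918 and the exact two-sided permutation p 0.114, where 4 mice against 4 allow no p below 0.0286. The difference was -0.91 within the lower-background arrays and -0.54 within the higher-background arrays, and with the set as a block the unadjusted p was 0.0281. Leaving out Cd151+/+ mouse 1 took the difference to -0.51, and leaving out Cd151-/- mouse 1 took it to -0.56. The unadjusted threshold was missed in both cases and also when Cd151+/+ mouse 2 or 4, or Cd151-/- mouse 4, was left out.

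Fzd7, a further Frizzled receptor, was not past the unadjusted threshold. Its log2 signal was 8.86, 8.54, 7.59 and 8.41 in Cd151+/+ mice and 8.17, 8.40, 8.80 and 8.46 in Cd151-/- mice, and all 4 Cd151-/- values lay within the range of the Cd151+/+ values. The difference of 0.11 (SE 0.29, 95% interval -0.52 to 0.74, limma, adjusted p = 0.958) turned to -0.15 without Cd151+/+ mouse 3 and to -0.01 without Cd151-/- mouse 3. Within the lower-background arrays the difference was -0.07 and within the higher-background arrays 0.28. Every higher-background array read below every lower-background array for this probe. The remaining Frizzled receptors, Fzd3, Fzd4, Fzd6, Fzd8 and Fzd10, differed by -0.36 to 0.28.

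Lrp5, a co-receptor for canonical Wnt signals, read 7.00, 6.68, 6.67 and 6.88 in Cd151+/+ mice and 7.24, 7.32, 6.99 and 7.11 in Cd151-/- mice. Only Cd151+/+ mouse 1 and Cd151-/- mouse 3 overlapped, and they differed by less than 0.02. The difference was 0.36 (SE 0.20, adjusted limma p = 0.918, exact permutation p = 0.0571), and it was 0.21 within the lower-background and 0.51 within the higher-background arrays. It passed the unadjusted threshold with no detection filter (0.36) and with array weights (0.41), under which 32.2% of all tested probes passed. Lrp5 is among the genes listed as up-regulated in Cd151-/- glomeruli in the paper, which used another normalisation and filter. Lrp6, its close relative, was detected on 3 Cd151+/+ and 2 Cd151-/- arrays and differed by -0.26 (SE 0.30).

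Sfrp1, a secreted antagonist that binds Wnt ligands, was detected on every array and read 12.24, 11.90, 11.26 and 12.41 in Cd151+/+ mice and 11.55, 10.97, 12.04 and 11.08 in Cd151-/- mice. The ranges overlapped, through Cd151+/+ mouse 3, the lowest of its genotype, and Cd151-/- mouse 3, the highest of its own. The difference was -0.54 (SE 0.32, adjusted limma p = 0.918, exact permutation p = 0.171), close to the same within the lower-background (-0.51) and higher-background arrays (-0.57). Without Cd151+/+ mouse 3 it was -0.76, and without Cd151-/- mouse 3 it was -0.75, and in both cases the probe passed the unadjusted threshold. It also passed with array weights (-0.61), as 32.2% of all tested probes did. Sfrp2, Sfrp5 and Wif1 differed by -0.14 to 0.29.

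Dkk3, a Dickkopf family member, varied more between the array sets than between the genotypes. Its brightest probe read 7.01, 6.09, 8.49 and 8.07 in Cd151+/+ mice and 8.16, 8.55, 7.22 and 6.33 in Cd151-/- mice. The 4 higher-background arrays gave 8.07 to 8.55 and the 4 lower-background arrays 6.09 to 7.22. The genotype difference was 0.15 (SE 0.57, 95% interval -1.11 to 1.42, exact permutation p = 0.771). Within the lower-background arrays it was 0.23 and within the higher-background arrays 0.08. With array weights it was 1.04, without passing the unadjusted threshold. It was below 0 when Cd151+/+ mouse 2 (-0.29) or Cd151-/- mouse 1 (-0.05) or 2 (-0.18) was left out. A second Dkk3 probe gave -0.42 (SE 0.49), so the probes of the gene were opposite in sign, and the dimmest probe was detected on 1 array. Dkkl1 differed by -0.11.

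Dvl1, the only detected Dishevelled gene, was read by a pair of probes. The brighter read 10.25, 10.22, 9.79 and 10.19 in Cd151+/+ mice and 9.80, 10.13, 10.06 and 10.06 in Cd151-/- mice, a difference of -0.10 (SE 0.20, exact permutation p = 0.457). For this probe it was -0.17 within the lower-background and -0.03 within the higher-background arrays. The dimmer was detected on 4 Cd151+/+ but 3 Cd151-/- arrays. It read 7.19, 6.98, 6.22 and 6.48 in Cd151+/+ mice and 6.05, 6.09, 6.51 and 5.25 in Cd151-/- mice. In the dimmer probe Cd151-/- mice 1, 2 and 4 lay below every Cd151+/+ mouse, but the brighter probe did not show this. Its difference was -0.75 (SE 0.31, 95% interval -1.43 to -0.06, unadjusted p = 0.0364, adjusted p = 0.918, exact permutation p = 0.0857), a 1.68-fold lower signal. It was -1.21 within the lower-background and -0.28 within the higher-background arrays. The unadjusted threshold was missed when Cd151+/+ mouse 1 or 2, or Cd151-/- mouse 1 or 4, was left out, and the difference was then -0.74 to -0.51. Without normexp the difference was -0.37, and the threshold was missed there too.

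Axin2, which scaffolds β-catenin destruction and is induced by β-catenin in turn, read 8.54, 8.33, 7.21 and 7.33 in Cd151+/+ mice and 6.98, 7.43, 7.94 and 7.29 in Cd151-/- mice. The genotypes overlapped over most of their range, and the difference was -0.44 (SE 0.34, adjusted limma p = 0.918, exact permutation p = 0.286). It was -0.82 within the lower-background and -0.06 within the higher-background arrays. Leaving out 1 mouse moved it between -0.21 (without Cd151+/+ mouse 1) and -0.66 (without Cd151+/+ mouse 3), with -0.28 without Cd151+/+ mouse 2. With array weights it was -0.93 and passed the unadjusted threshold, as 32.2% of all tested probes did under that setting.

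Ctnnb1, which encodes β-catenin, was higher on the higher-background arrays in both genotypes. Its brighter probe read 7.29, 7.45, 8.90 and 7.98 in Cd151+/+ mice and 9.01, 9.11, 7.61 and 7.57 in Cd151-/- mice, a genotype difference of 0.42 (SE 0.45, exact permutation p = 0.457). The dimmer read 6.62, 7.03, 7.73 and 7.50 against 8.45, 8.59, 7.13 and 6.98, a difference of 0.56 (SE 0.41, exact permutation p = 0.314). Within the higher-background arrays the differences were 0.62 and 0.90, and within the lower-background arrays 0.22 and 0.23. For the brighter probe, the difference was 0.19 or 0.16 when Cd151-/- mouse 1 or 2 was left out and 0.21 or 0.27 when Cd151+/+ mouse 1 or 2 was. It was 0.76 when Cd151+/+ mouse 3 was left out, and 0.66 or 0.67 when the same was done for mouse 3 or 4 of the Cd151-/- group. With array weights it was 1.14 and passed the unadjusted threshold, as 32.2% of all tested probes did under that setting. With the array set as a block the dimmer probe had an unadjusted p of 0.0169 and an adjusted p of 0.379.

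**Figure D3:**
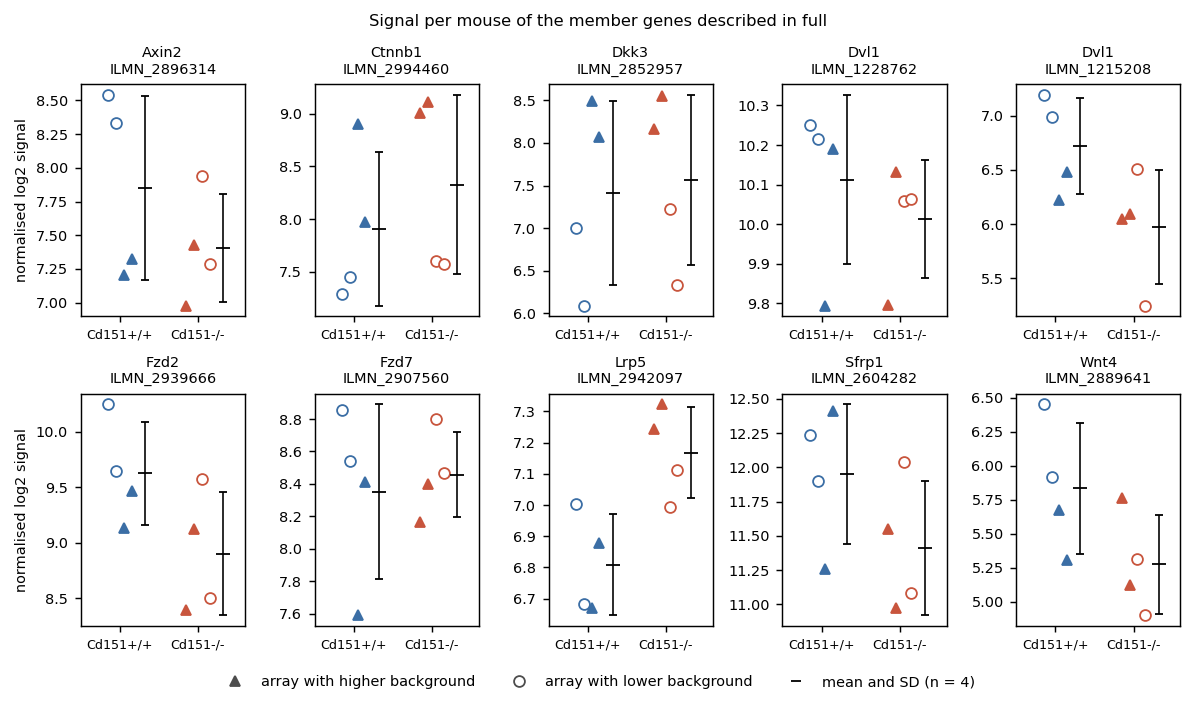
Normalised log2 signal of each mouse (points; filled triangles, higher-background arrays; open circles, lower-background arrays) for 10 probes of the 9 genes described in full, with mean and SD beside each genotype (n = 4), on an axis scaled for each probe. The genotypes overlap in every panel, and in the Ctnnb1 and Dkk3 panels the triangles lie above the circles.

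With the array set fitted as a block, the spread left for the genotype contrast was smaller over the whole array, and 5.21% of all tested probes were higher and 6.08% lower in Cd151-/- glomeruli at an unadjusted p of 0.05. Of the 33 member probes 1 was then higher (the dimmer Ctnnb1 probe) and 2 lower (Fzd2, and the dimmer Dvl1 probe). After adjustment 0 members passed, with a smallest adjusted p of 0.379, and 0.0535% of all probes did. The contrast between the array sets themselves, with genotype as the block and chosen after the arrays had been seen, passed adjustment for 7 of the 33 member probes (21.2%), against 23.9% of all tested probes. Those higher on the higher-background arrays were both Ctnnb1 probes (1.27 and 1.13), Dkk3 probes (1.66 and 1.32) and Wif1 (0.97), and those lower were Fzd8 (-1.40) and Axin2 (-0.79). The part of the array set in the genotype values of these genes was not tested. Within-set differences are given above only for Axin2, Ctnnb1 and the brightest Dkk3 probe.

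**Figure D4:**
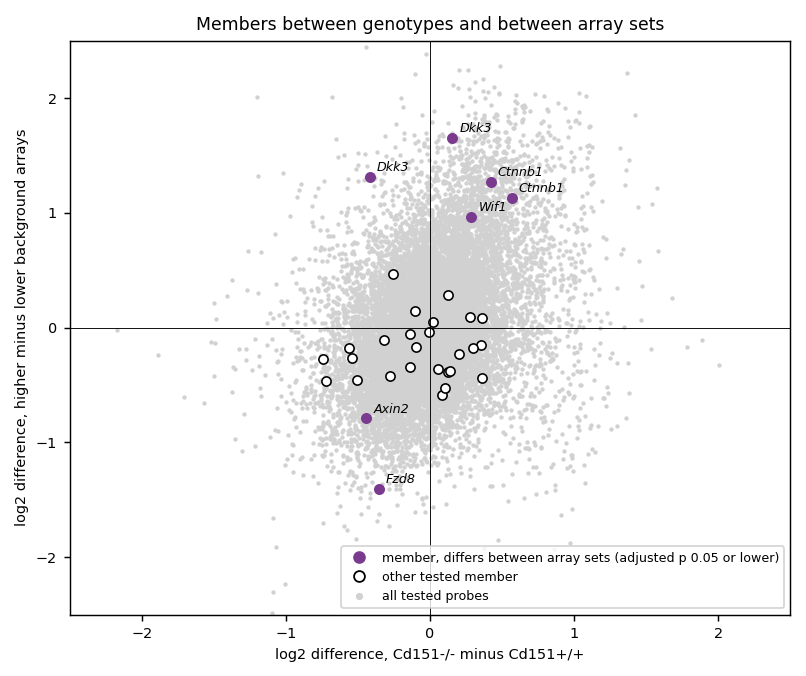
Log2 difference between genotypes (horizontal axis, Cd151-/- minus Cd151+/+) against log2 difference between array sets (vertical axis, higher minus lower background) for the 33 tested member probes over all tested probes (grey). The 7 filled members differed between array sets after adjustment, and their vertical distances from 0 (0.79 to 1.66) exceed their horizontal distances.

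Wnt pathway genes outside the members were examined in 6 lists (receptors, secretion and extracellular regulators, the destruction complex, nuclear partners, planar cell polarity, and target genes). Of 86 genes listed, 80 were on the array and 64 were tested through 85 probes. After adjustment 0 passed, and at an unadjusted p of 0.05, 4 of the 85 probes were higher (4.71%, against 1.69% of all tested probes) and 3 lower (3.53%, against 2.61%). Their median difference was -0.07, with 35 probes above 0 and 50 below. With the array set as a block 7 were higher (8.24%, against 5.21% of all) and 11 lower (12.9%, against 6.08%), so that the balance of direction turned. Of these 11, 6 were in the destruction complex list, where 1 had been lower without the block. The 6 were both Frat1 probes, the Frat2 and Btrc probes, and single probes of Csnk1d and Csnk1e. The other Csnk1d and Csnk1e probes did not pass. The destruction complex list had 15 of 21 probes below 0 (median -0.15) and the target genes 7 of 16 (median 0.05).

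The probes higher at the unadjusted threshold were for Notum, Daam1, Daam2 and Sp5. Notum, an extracellular enzyme that inactivates Wnt proteins by removing their lipid, differed by 0.95 (SE 0.42). Sp5, a transcription factor induced by β-catenin, differed by 0.92 (SE 0.35) and was detected on 2 Cd151+/+ and 3 Cd151-/- arrays. The planar polarity formins Daam2 (0.85, SE 0.29) and Daam1 (0.56, SE 0.22) were close to background, with detection on 1 and 0 Cd151+/+ arrays and on 4 and 2 Cd151-/- arrays. A brighter Daam1 probe was detected on all arrays and did not pass. The lower probes were for Frat2, a Gsk3-binding protein (-0.80, SE 0.33), for the epithelial transition factor Snai1 (-0.78, SE 0.31) and for the dimmest of 3 probes for the cell cycle gene Ccnd1 (-0.77, SE 0.31). The brighter Ccnd1 probes lay above 0 (0.21 and 0.10) and did not pass. Within the lower- and higher-background arrays the differences were 1.39 and 0.51 for Notum, 1.13 and 0.72 for Sp5, 1.12 and 0.57 for Daam2, 0.66 and 0.47 for Daam1, -0.57 and -1.04 for Frat2, -1.43 and -0.13 for Snai1 and -0.43 and -1.10 for Ccnd1. All 7 kept their sign in both sets, but the sets are parts of the arrays on which these probes were picked. The difference of each probe over all arrays is the mean of its within-set differences. The shared sign is therefore no separate test of these probes. Snai1 had the widest gap between the sets. All 7 had an adjusted limma p of 0.918. The target genes that passed before adjustment were thus higher (Sp5) and lower (Snai1 and the dimmest of the Ccnd1 probes), and Axin2 did not pass.

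**Figure D5:**
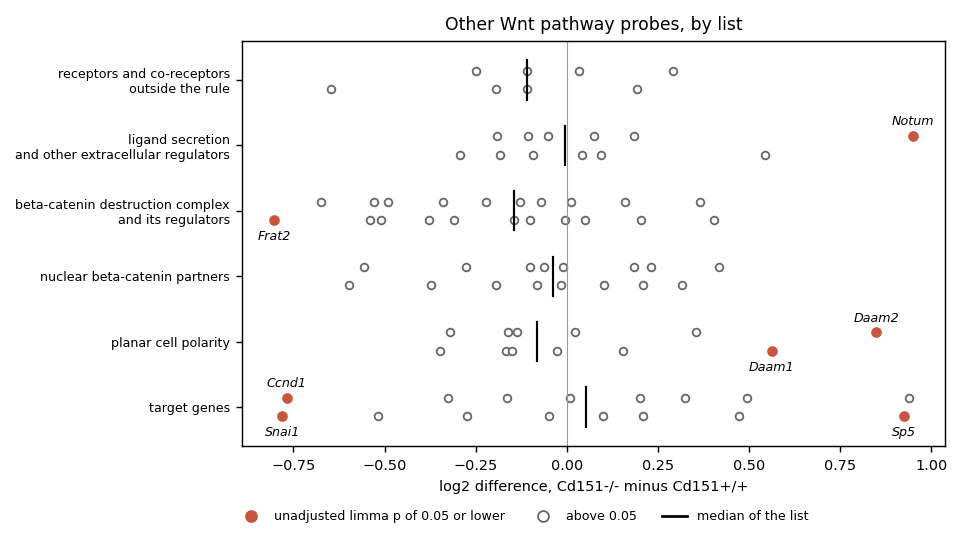
Log2 difference, Cd151-/- minus Cd151+/+, of the 85 tested probes of the 6 further Wnt pathway lists (points, offset vertically for legibility), with the median of each list as a bar. Filled points mark the 7 probes at an unadjusted limma p of 0.05 or lower, 4 to the right of 0 and 3 to the left.

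Markers of the glomerular and other cell types were read in the same isolates, and none of their probes passed adjustment. At the unadjusted threshold 1.69% of all tested probes were higher and 2.61% lower. All 11 tested proximal tubule probes were above 0 (median difference 0.64), and both probes past the unadjusted threshold were for the water channel Aqp1. Within the lower-background arrays the differences of that list were 0.71 to 1.81 (median 1.30), and within the higher-background arrays -0.34 to 0.84 (median 0.10, with 3 probes below 0). The summed log2 level of that list was 14.39 to 15.95 in Cd151+/+ and 15.39 to 16.26 in Cd151-/- mice. The 3 erythroid probes were below 0, 2 of them past the threshold (Alas2 and Hba-a1). Their summed level was 15.19 to 15.60 in Cd151+/+ and 14.10 to 15.18 in Cd151-/- mice, without overlap but with nearly touching ranges. The differences of these probes were -3.20 to -0.04 (median -0.71) within the lower-background arrays. Within the higher-background arrays they were -1.95 to -0.01 (median -0.66). Of the podocyte probes 10 of 11 were below 0 (median -0.19), with a summed level of 15.97 to 16.12 against 15.66 to 16.08. The podocyte median was -0.38 within the lower-background arrays, with all 11 probes below 0, and 0.07 within the higher-background arrays, with 5 below 0. Of the glomerular endothelial probes 8 of 9 were below 0 (median -0.35), with a summed level of 15.09 to 15.44 against 14.48 to 15.43 and medians of -0.48 and -0.34 within the lower- and higher-background arrays. In the mesangial list 1 Acta2 probe was higher (0.71) and Pdgfrb lower (-0.74) at the unadjusted threshold. No probe of the parietal epithelial (1 of 3 above 0), distal nephron (3 of 13) or leukocyte lists (2 of 4) passed that threshold. The summed level of the interstitial fibroblast list differed between array sets (8.50 to 9.22 on the lower-background and 9.62 to 9.68 on the higher-background arrays), with Col3a1, Dpt and Lum not detected. The part of these cell types in the Wnt pathway values was not tested.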

How the data were processed

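The authors labelled glomerular RNA, hybridised it to MouseRef-8 arrays and deposited, per the file headers, the mean bead signal intensity of each probe, neither background-subtracted nor normalised, with a detection p-value (software GenomeStudio, per the submitters' processing notes). All 8 samples were grouped by the genotype in their labels. In R 4.3.3, limma 3.58.1 estimated the background of every array through its detection p-values, and neqc (offset 16, quantile normalisation) gave the normalised log2 signal. The probes that 1 array or more detected (detection p-value up to 0.05) entered lmFit and eBayes, Cd151-/- minus Cd151+/+, with Benjamini-Hochberg adjustment over all of them. The fit was tested on simulated data. Exact permutation tests were two-sided. Spread is between mice, and the number of arrays limits the precision.

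The members, gene lists and tests were chosen with earlier results of these data known. Values on every array are given for member genes at an unadjusted p of 0.05 or lower or without overlap, the 6 brightest, and the largest difference of each role among genes detected on all 4 arrays of a genotype. Of several probes the brightest is given and the others are mentioned. Brightness served only to choose probes and the 6 brightest genes. Symbols were matched to a RefSeq table (GRCm38.p6), 12036 directly and 5204 through a synonym, of 18120. Members described in full without an entry in the promoter table, among them Fzd2, Sfrp1 and Lrp5, were not searched. The marker lists were podocyte, glomerular endothelium, mesangium and smooth muscle, parietal epithelium, proximal tubule, distal nephron, interstitial fibroblast, leukocyte and erythroid, and the results of some single marker genes are not reported here. Alternatives were deposited signals without normexp, an offset of 50, 75th percentile scaling, a cubic spline over 15 quantiles, other detection filters, array weights, a trended and robust variance, blocks for mouse number or array set, leaving out each mouse, and SAM over all 70 relabelings at an FDR below 0.2. The within-set differences and the contrast between array sets were added after the data were seen.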

Additional observations from a re-analysis of the deposited data

Results flagged for a closer look

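Of the 66 groups of 4 mice formed by the 33 tested member probes and both genotypes, 3 held a mouse far from the other 3, where chance alone marks about 5% of groups. The brighter Dvl1 probe read 9.79 in Cd151+/+ mouse 3 against 10.19 to 10.25 in the other Cd151+/+ mice. Sfrp5 read 5.29 in Cd151-/- mouse 3 against 4.96 to 5.00 in the other Cd151-/- mice, and was not detected on any Cd151-/- array. A Wnt9b probe read 6.26 in Cd151-/- mouse 3 against 4.99 to 5.15 in the others, and that was the only Cd151-/- array to detect it.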

How the results depend on the processing

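The count of member probes past adjustment stayed at 0 under every alternative run, and the smallest adjusted p of a member ranged from 0.0885 with array weights to 1.00 without Cd151+/+ mouse 1. SAM called 91 probes of all tested (87 on cubic-spline values) with delta stepped over 2000 values and 38 (30) over 200 values, and 0 members in each case. The finer stepping was chosen after the coarser result had been seen. The 2 member probes lower at the unadjusted threshold became 1 without normexp and with a trended and robust variance, 0 with scaling to the 75th percentile, and 7 with array weights, under which 32.2% of all probes passed. Leaving out each mouse gave 0 to 4. The 0 higher became 3 with no detection filter, 1 with the array set as a block and 3 with array weights. Probes without overlap numbered 1 lower with no detection filter, and with a mouse left out 0 to 3 lower and 0 to 2 higher. The median of the members moved from 0.02 to -0.17 with 75th percentile scaling, which put the median of all probes at -0.07. The 7 other pathway probes (8.24% of 85) became 18 with the array set as a block (21.2%, 7 higher and 11 lower, where 11.3% of all probes passed) and 28 with array weights (32.9%, where 32.2% of all did), and 3 to 12 with a mouse left out. The difference of Fzd7 turned to -0.21 with array weights and -0.067 within the lower-background arrays, and ranged from -0.15 to 0.27 with a mouse left out, and that of Dkk3 from -0.29 to 0.57, with 1.04 under array weights. Fzd2 missed the unadjusted threshold with 75th percentile scaling, with no detection filter and with the replicate block, and the dimmer Dvl1 probe without normexp (-0.37), with 75th percentile scaling (-0.65), with a trended and robust variance and with the replicate block. Mice of the same number did not deviate together (correlations of -0.58 to -0.01). Each such pair lay in opposite background sets, however, so these correlations cannot tell whether the numbers pair the samples. With the mouse number as a replicate block the lower member probes numbered 0 and the probes at p of 0.05 or lower 420 of all tested, against 643. The causes of these changes were not tested. The 4 arrays per genotype and the closeness of many member probes to background limit what could be detected: 22 of the 47 genes had no detected probe.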
